A study of Mus musculus with 6 samples.

Results

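The probe sets of the immunoglobulin heavy chain, kappa and lambda loci were examined in mouse pro-B cells before and after deletion of Foxo1. Every probe set whose entry in the array's probe table carries a gene symbol beginning with Igh, Igk, Iglc, Iglj or Iglv was taken, except Ighmbp2, which encodes a helicase. This gave 31 of 34760 probe sets, of which 10 belong to the heavy chain locus, 19 to kappa and 2 to lambda. The rule goes by gene names and by no measured value, but it was chosen with earlier results of these data known. Total RNA came from pro-B cells transformed with v-Abl, a viral tyrosine kinase that holds cells at an early stage. All 6 samples had the genotype Foxo1f/f; ERCre and the strain C57/BL6, so that tamoxifen-activated Cre could remove the loxP-flanked Foxo1 alleles. The 3 untreated samples are labelled WT, and 3 samples labelled as the Foxo1 knockout received 1 µM tamoxifen for 2 days. How many clones or separate cultures the samples represent is not given, so every p-value rests on the spread among these 6, and that spread may be technical. Tamoxifen-treated cells without floxed Foxo1 were not analysed here, so the drug, Cre activity and loss of Foxo1 cannot be told apart.

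Antibody genes are assembled in developing B cells from variable, diversity and joining segments, which the RAG recombinase cuts and joins upstream of a constant gene. Heavy chain assembly comes first, in pro-B cells, and light chain assembly follows at kappa and then lambda. Segments that have not been joined can be transcribed too, as germline transcripts that accompany opening of the locus. Foxo1 is a forkhead transcription factor that activates the RAG genes and other genes of early B cells. In v-Abl transformed cells the kinase keeps light chain recombination low until it is inhibited.

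Throughout, the 3 values of a group are given in the order of the sample numbers 1, 2 and 3. Foxo1 itself had intensities of 806, 624 and 512 untreated and of 116, 151 and 134 after tamoxifen. It fell by 2.13 ± 0.15 (SE, limma adjusted p = 0.0178) on the log2(intensity + 16) scale, which is used for every fold change, although nothing shows whether its probe set lies in the deleted part. With 1 array left out this call held only without untreated sample 1, and limma adjusted p was otherwise 0.0843 to 0.156. Array medians ran from 101 to 109. Of 11 measured markers of pro-B and pre-B cells, 8 were at or above the median of all probe set means (106). At or above it were also 5 of 7 mature B cell and 4 of 8 plasma cell markers, so these counts do not set the B lineage stages apart. For other lineages they were 1 of 8 T cell, 1 of 11 myeloid, 1 of 4 erythroid and 1 of 6 NK cell markers. No marker was listed at 0.

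The array reads these loci through few and partly shared probe sets. Of the 31, 15 carry 1 gene symbol and 16 carry several, up to 8 on a probe set. They name 31 immunoglobulin symbols, 6 of the heavy chain, 22 of kappa and 3 of lambda. RefSeq's genes of the GRCm38.p6 assembly include 30 of these, on chromosomes 12 (heavy chain), 6 (kappa) and 16 (lambda), but not Igk-V21. RefSeq lists 162 kappa variable segments. Counted outward from the constant gene Igkc, the kappa symbols measured here run from place 15 (Igkv6-14) to place 160 (Igkv1-135). The heavy chain variable symbols Ighv3-6, Ighv1-26 and Ighv1-33 stand at places 59, 106 and 113 of 183 counted from Ighm. The lambda locus of the mouse is small, with 3 variable segments in RefSeq, of which Iglv1 and Iglv2 are named here.

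The probe table assigns symbols through transcript accessions, and 19 of the 31 probe sets share an accession with another of the 31. Both probe sets that carry Igha alone list the same 7 accessions. A symbol of a constant gene therefore does not show that a probe set reads the constant region, since an accession of a joined transcript can hold variable and constant sequence together. Where each probe set lies was not known here. Probe sets also differ in brightness for the same amount of RNA, so intensities are compared between samples and not between probe sets.

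The immunoglobulin probe sets were mostly dim. Their means over the 6 arrays ran from 10.6 to 557 with a median of 65.1, beside 106 over all probe sets. Of the 31, 10 were at or above the median of all probe sets, 3 were at or above the upper quartile, and 13 lay below the lower quartile. In the heavy chain locus 3 of 10 reached the median of all, in kappa 5 of 19, and in lambda 2 of 2. These counts describe how bright the probe sets were and do not order the loci by amount of RNA.

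**Figure D1:**
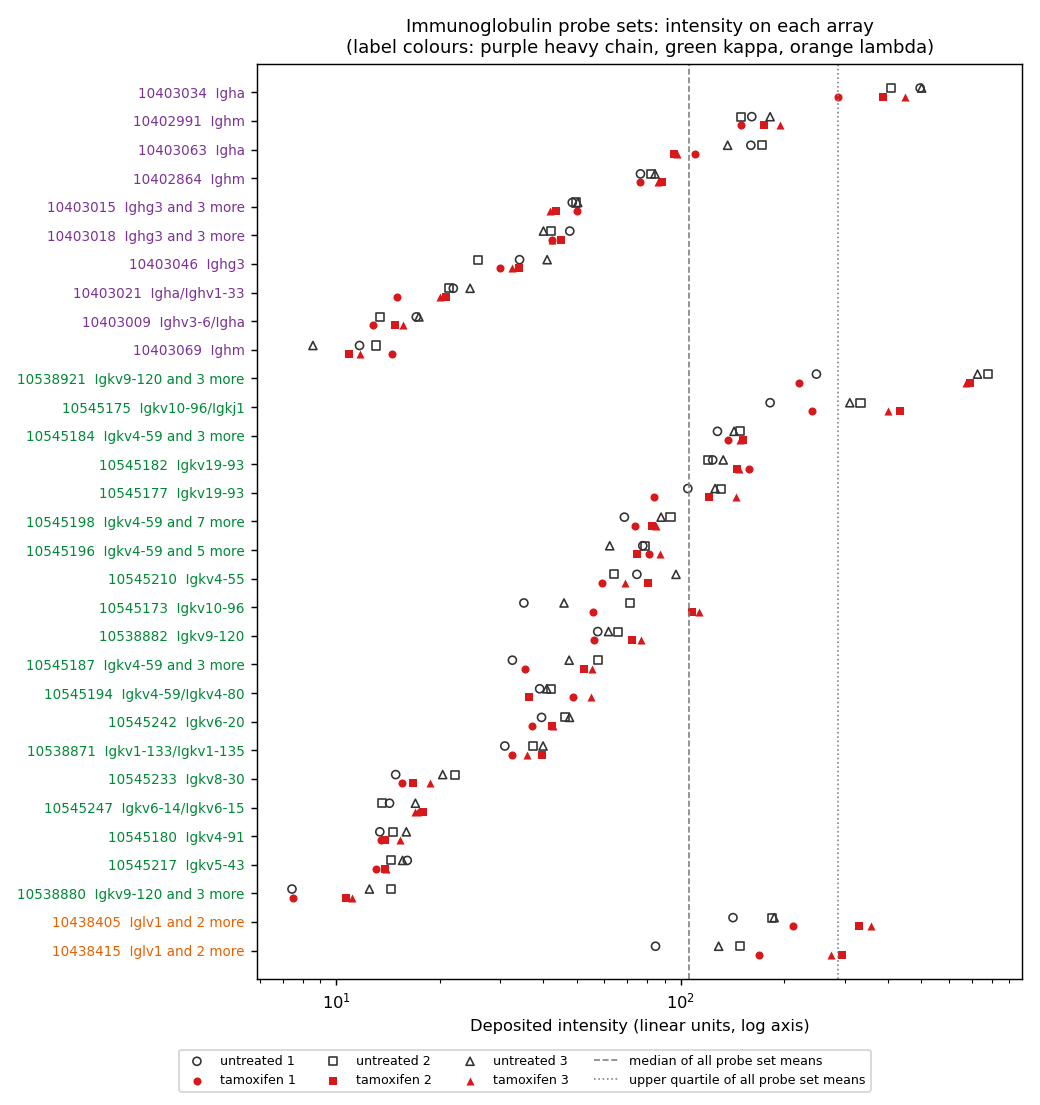
Deposited intensity (log axis) of each of the 31 immunoglobulin probe sets on each array, with open symbols for untreated and filled red symbols for tamoxifen samples and a shape for each sample number. Vertical lines mark the median and upper quartile of all probe set means; 21 of the 31 lie below the median, and both lambda probe sets have all tamoxifen values above all untreated values.

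None of the 31 immunoglobulin probe sets was called different after tamoxifen. With limma and Benjamini-Hochberg adjustment over all 34760 probe sets, 0 of 31 passed an adjusted p of 0.05, where 0.0575% of all probe sets did. At an unadjusted p under 0.05 there were 5 of 31 (16.1%), where 5.11% of all probe sets passed. These 5 were both lambda probe sets, the kappa probe sets 10545173 (Igkv10-96) and 10545182 (Igkv19-93), and the heavy chain probe set 10403063 (Igha). The lambda pair shares an accession, so these 5 are not independent of each other. Without overlap between the groups there were 6 of 31 (19.4%), beside 8.51% of all probe sets. Of these 3 were higher after tamoxifen and 3 lower, and over all probe sets these shares were 4.25% and 4.26%. The median log2 fold change was 0.01 over the 31 and -0.01 over all probe sets, with 16 of the 31 positive, and 25 lay within 0.25 of 0.

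**Figure D2:**
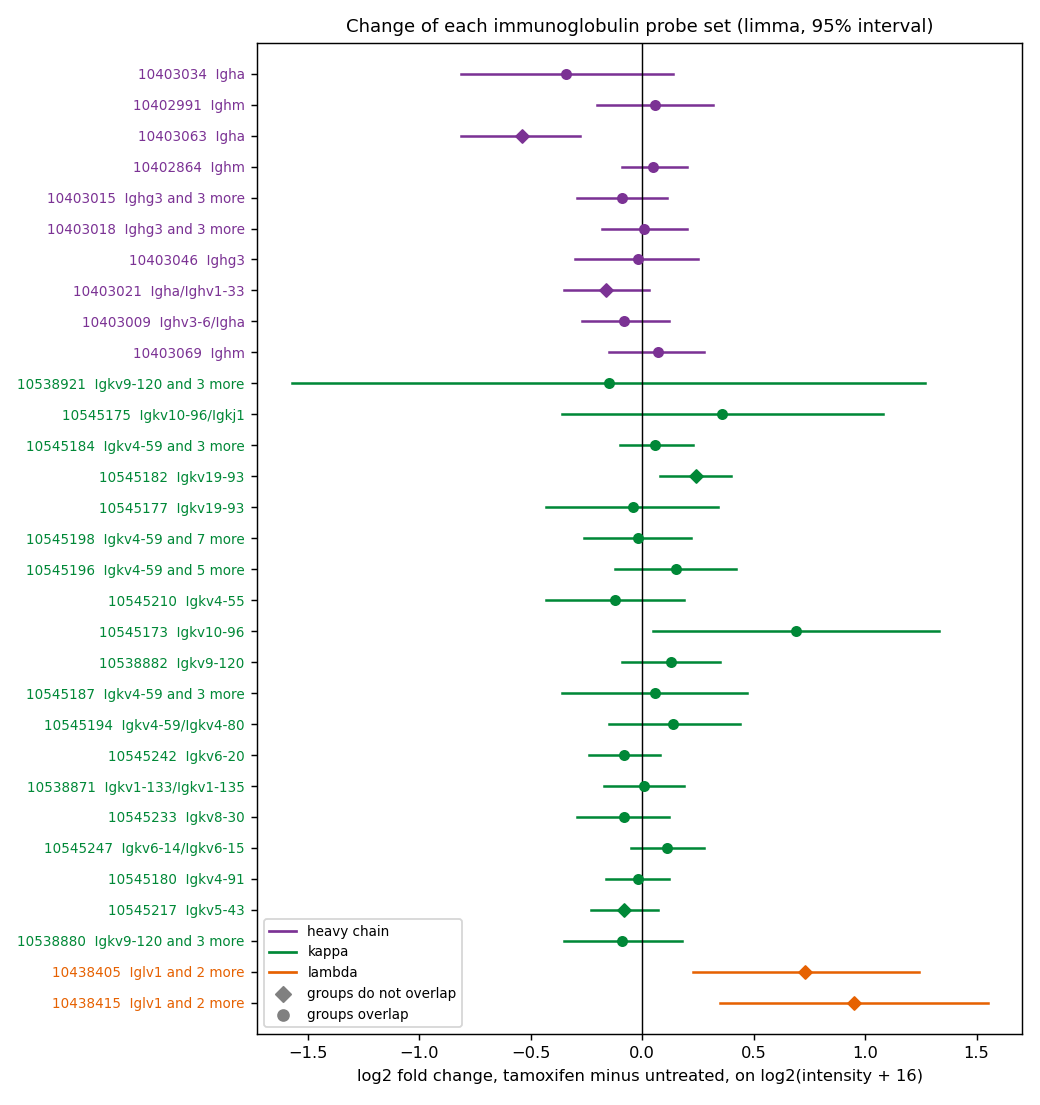
Log2 fold change (tamoxifen minus untreated, on log2(intensity + 16)) of each of the 31 probe sets, with its 95% interval from limma and diamonds where the groups do not overlap. The lambda probe sets, at 0.73 and 0.95, and Igkv10-96, at 0.69, lie farthest to the right, and Igha probe set 10403063, at -0.54, farthest to the left; none passed the adjusted threshold.

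The heavy chain probe sets had a median log2 fold change of -0.05 over 10, with 4 of 10 positive. Over the 3 at or above the median of all probe sets, which were 1 of Ighm and 2 of Igha, it was -0.34. Ighm encodes the mu chain, the first heavy chain a B cell makes and a part of the pre-B cell receptor. Its brightest probe set (10402991) had intensities of 161, 150 and 182 untreated and 150, 175 and 194 after tamoxifen. The groups overlapped, and the log2 fold change was 0.06 with a 95% interval of -0.20 to 0.32. The second Ighm probe set (10402864) measured 76.5, 82.3 and 84.3 untreated and 76.4, 88.6 and 86.1 after tamoxifen, again with overlap, at 0.05 with an interval of -0.09 to 0.20. The third (10403069) was among the dimmest, between 8.57 and 14.5 on the 6 arrays, and measured 0.07 ± 0.09 (SE). The intervals of the brighter 2 leave out a doubling or halving of this signal.

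Igha, the constant gene of IgA, had the lowest log2 fold change of the 31. Probe set 10403063 measured 160, 172 and 137 untreated and 110, 95.6 and 97.6 after tamoxifen. All 3 tamoxifen values lay under all untreated values. The means were 156 ± 17.6 and 101 ± 7.66 (SD, n = 3), and the log2 fold change was -0.54 ± 0.11 (SE; unadjusted p = 0.00204, limma adjusted p = 0.365). The other probe set with Igha alone (10403034) measured 496, 409 and 501 untreated and 286, 386 and 447 after tamoxifen. Here tamoxifen sample 3 lay above untreated sample 2, and the log2 fold change was -0.34 ± 0.20 (SE; limma adjusted p = 0.999). Without tamoxifen sample 1 that value was -0.14, and without tamoxifen sample 3 it was -0.50.

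The remaining heavy chain probe sets were dim. Ighg3, a constant gene of IgG, measured 34.1, 25.9 and 41 untreated and 29.9, 34 and 32.5 after tamoxifen (10403046), with a log2 fold change of -0.02 ± 0.11 (SE). A pair of probe sets shared by Ighg3, Igha, Ighv1-33 and Ighv1-26 measured -0.09 (10403015) and 0.01 (10403018). The probe set shared by Igha and Ighv1-33 (10403021) was at 21.9, 21.3 and 24.5 untreated and 15, 20.8 and 20 after tamoxifen, without overlap, at -0.16 with a limma adjusted p = 0.999. That shared by Ighv3-6 and Igha (10403009) measured -0.08 ± 0.08 (SE).

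The lambda probe sets had the highest log2 fold changes of the 31. The 2 lambda probe sets are both shared by Iglv1, Iglv2 and Iglc1, a constant gene of lambda light chains. The first (10438405) had intensities of 142, 184 and 187 untreated and 212, 329 and 356 after tamoxifen. Every tamoxifen value lay above every untreated value, and in each group sample 1 was the lowest. The means were 171 ± 25 and 299 ± 76.3 (SD, n = 3), and the log2 fold change was 0.73 ± 0.21 (SE), with a 95% interval of 0.23 to 1.24 (unadjusted p = 0.0115, limma adjusted p = 0.69).

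The second lambda probe set (10438415) measured 84.6, 149 and 129 untreated and 169, 295 and 273 after tamoxifen. Again the groups did not overlap, with sample 1 the lowest of each. The means were 121 ± 33.1 and 246 ± 67.1 (SD, n = 3), and the log2 fold change was 0.95 ± 0.25 (SE; unadjusted p = 0.00784, limma adjusted p = 0.61). The probe sets share 1 of 4 accessions each and may read the same transcripts, so their agreement in direction is not a replicate. With any 1 array left out, the log2 fold changes ran from 0.60 to 0.95 for the first and from 0.75 to 1.16 for the second. Neither passed the adjusted threshold under any of 17 alternative settings, with adjusted p from 0.199 to 1 and from 0.0936 to 1.

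The kappa probe sets had a median log2 fold change of 0.01, with 10 of 19 positive. The variable segment Igkv10-96 was measured by a probe set of its own (10545173), at 35.1, 71.4 and 45.9 untreated and 55.7, 108 and 113 after tamoxifen. Tamoxifen samples 2 and 3 lay above all untreated values, whereas tamoxifen sample 1 lay below untreated sample 2. The log2 fold change was 0.69 ± 0.27 (SE), with an unadjusted p = 0.0376 and a limma adjusted p = 0.927. A probe set that Igkv10-96 shares with the joining segment Igkj1 (10545175) lists all 4 accessions of the first among its 9. It measured 182, 333 and 310 untreated and 241, 434 and 401 after tamoxifen, with overlapping groups and a log2 fold change of 0.36 ± 0.30 (SE). The tamoxifen value was above the untreated value of the same number in each of 3 numbers.

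Igkv19-93 is the only symbol on 2 probe sets and is named with other symbols on another. Probe set 10545182 measured 124, 120 and 133 untreated and 158, 146 and 148 after tamoxifen, without overlap, at 0.24 ± 0.07 (SE) with an unadjusted p = 0.0104 and a limma adjusted p = 0.674. Probe set 10545177 measured 105, 131 and 126 untreated and 83.9, 121 and 145 after tamoxifen, and its log2 fold change of -0.04 ± 0.16 (SE) changed sign when tamoxifen sample 1 was left out (0.12). These 2 share 1 accession, and their 95% intervals, 0.08 to 0.40 and -0.43 to 0.34, overlapped. Probe set 10545198, which names Igkv19-93 among 8 symbols, shares all 3 accessions of 10545182. It measured -0.02 ± 0.10 (SE).

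**Figure D3:**
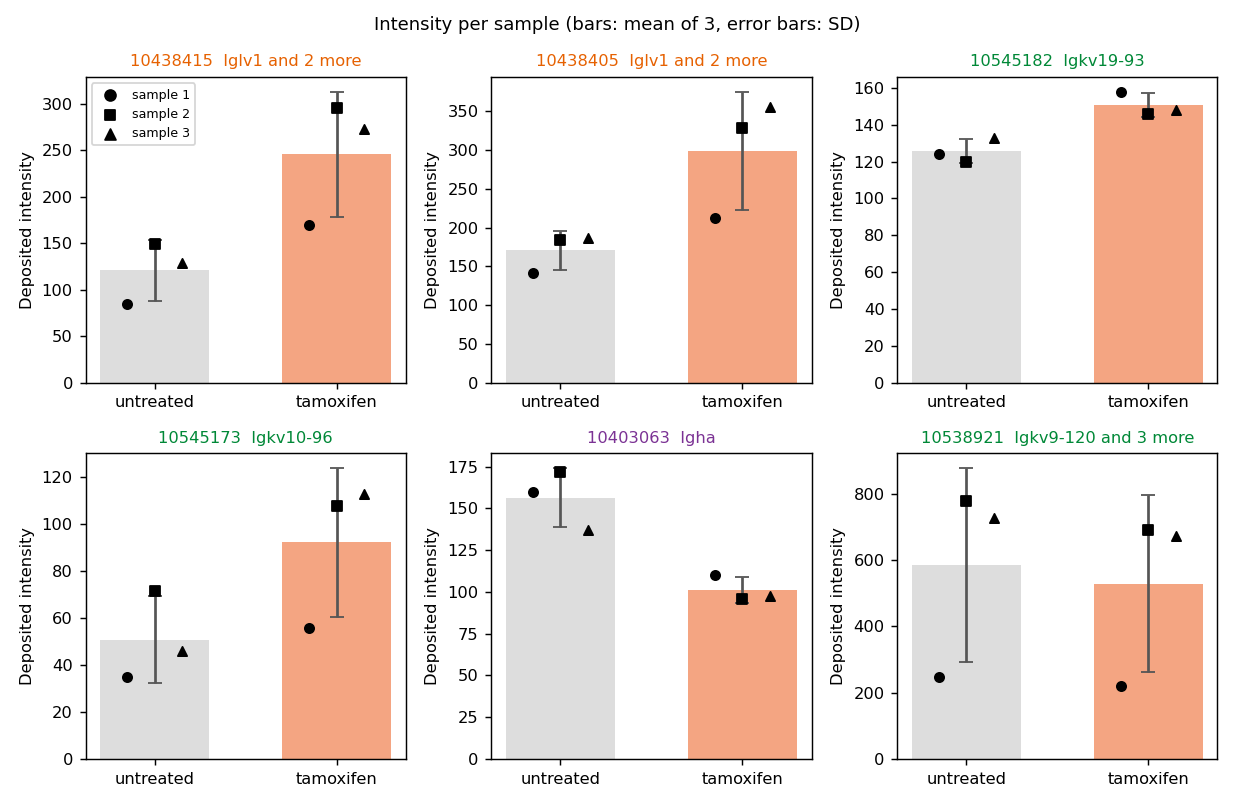
Deposited intensity per sample for the 5 probe sets with an unadjusted p under 0.05 and for the brightest kappa probe set (10538921), with bars for the mean of 3, error bars for the SD and a point shape for each sample number. Sample 1 is the lowest of both groups for the lambda probe sets, Igkv10-96 and probe set 10538921, which measured 248 and 221 in samples 1 against 674 to 779 in the others.

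Igkc, the only constant gene of the kappa locus, is named on 4 probe sets, each shared with variable segments of the Igkv4 family. The brightest (10545184) measured 128, 149 and 143 untreated and 137, 152 and 149 after tamoxifen, with overlap and a log2 fold change of 0.06 with a 95% interval of -0.10 to 0.23. The other 3 measured 0.06 (10545187), 0.15 (10545196) and -0.02 (10545198), with SE of 0.17, 0.11 and 0.10. Igkv9-120 alone (10538882) measured 57.5, 65.9 and 61.8 untreated and 56.1, 72.1 and 77 after tamoxifen, at 0.13 ± 0.09 (SE). Of the dim kappa probe sets, Igkv5-43 (10545217) lay between 13.1 and 16.1 on all arrays without overlap, at -0.08, and the probe set of Igkv6-14 and Igkv6-15 (10545247) measured 0.11. The 7 kappa probe sets not described one by one, among them Igkv4-55, Igkv6-20 and Igkv8-30, had unadjusted p of 0.265 or more.

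The brightest kappa probe set (10538921) differed far more between sample numbers than between the groups. It is shared by Igkv9-120, Igk-V21, Igkv1-117 and Map3k20, a kinase gene outside the locus. Its intensity was 248, 779 and 728 untreated and 221, 692 and 674 after tamoxifen. Sample 1 reached 32.9% of the mean of the other untreated samples and 32.3% of the mean of the other tamoxifen samples. The log2 fold change between the groups was -0.15 with a 95% interval of -1.57 to 1.27, from a fit without the sample number. The tamoxifen value was lower than the untreated value of the same number in each of 3 numbers. The log2 fold change ran from -0.67 to 0.39 with 1 array left out. A probe set of Map3k20 alone measured 144, 139 and 141 untreated and 160, 140 and 132 after tamoxifen, and the part of Map3k20 in the shared probe set was not tested.

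Low values in samples 1 were frequent among the light chain probe sets. Sample 1 was the lowest of both groups in 13 of 19 kappa, 2 of 2 lambda and 1 of 10 heavy chain probe sets, and in 17.8% of all probe sets. After quantile normalisation the counts were 12, 2 and 1, beside 14.4% of all. Of the 13 kappa probe sets, 9 were among the 14 of kappa below the median of all probe sets, and several of the 13 share accessions. Some differed little, such as 10545180 (Igkv4-91), at 13.4, 14.6 and 16 untreated and 13.5, 13.9 and 15.3 after tamoxifen. In 6 of the 31 (19.4%) sample 1 was under 70% of the mean of the other samples in both groups, a bound chosen after the values were seen, where 1.22% of all probe sets met it. These 6 are 5 kappa probe sets and 1 lambda probe set, and several share accessions, so they are fewer than 6 separate signals.

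**Figure D4:**
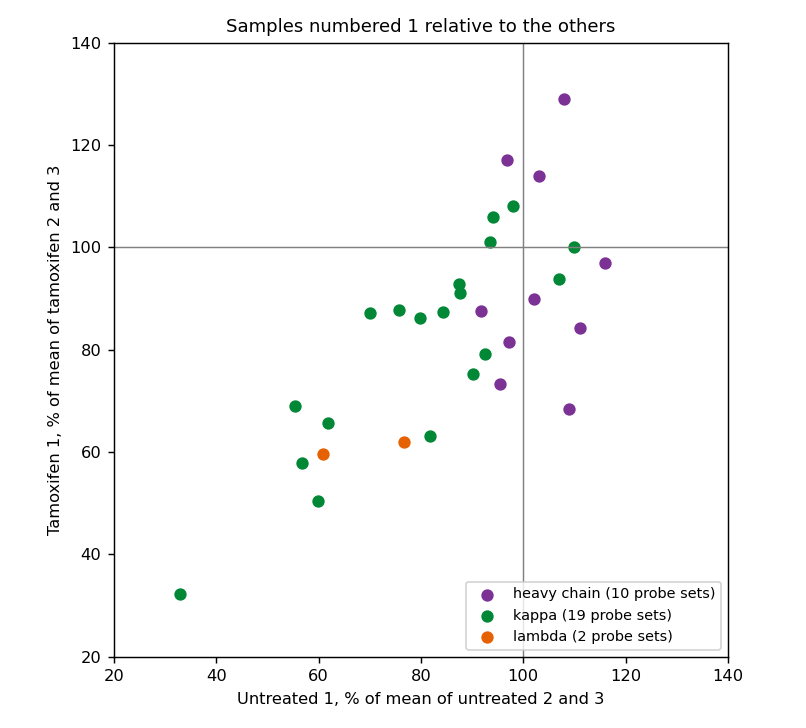
Intensity of untreated sample 1 as a percent of the mean of untreated samples 2 and 3 (horizontal axis) against the same for tamoxifen sample 1 (vertical axis), with 1 point for each probe set, coloured by locus. Kappa and lambda points extend to the lower left, down to 32.9% and 32.3% for probe set 10538921, whereas no heavy chain probe set is under 70% in both groups.

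With untreated 1 and tamoxifen 1 both left out, a setting chosen after these values were seen, 0 of 31 passed the adjusted threshold and 6 had an unadjusted p under 0.05. The lambda values were then 0.83 and 0.96, Igkv10-96 0.78, Igkv19-93 probe set 10545182 0.19 and Igha probe set 10403063 -0.58. The directions of these 5 were therefore as in all 6 samples.

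Markers of B lineage stages were read beside these values. The 11 measured markers of pro-B and pre-B cells had a median log2 fold change of -0.09, with 4 positive. Their summed intensity was highest in sample 1 of both groups, at 18048, 15091 and 14157 untreated and 17481, 16643 and 16976 after tamoxifen. Sample 1 was the highest of both groups for 5 of the 11 and the lowest of both for 1. Of 9 listed markers of more mature B cells 7 were measured, with a median log2 fold change of 0.40. Of these 1 passed limma, Tnfrsf13c, the BAFF receptor, and 3 had an unadjusted p under 0.05, beside 5.11% of all probe sets. Their summed intensity was 1207, 1591 and 1554 untreated and 1942, 2309 and 2360 after tamoxifen. Sample 1 was the lowest of both groups for 4 of the 7 and the highest of both for 1, the homing receptor Ccr7. Between the groups, Tnfrsf13c had the largest rise in mean intensity of the 7, from 341 to 700. The gap in the sums between sample 1 and the other samples lay mostly in Cd22 and Cr2. Cd22, an inhibitory receptor of B cells, was at 180, 480 and 432 untreated and 333, 647 and 638 after tamoxifen. Cr2, a complement receptor, was at 93.9, 179 and 169 untreated and 155, 274 and 242 after tamoxifen. Cd22, Cr2, Ccr7, Mzb1 and Jchain are named here after their values were seen. For plasma cells, which secrete antibody, 8 of 9 markers were measured, with a median log2 fold change of 0.05. Their sums were highest in sample 1 of both groups, at 2370, 1940 and 1748 untreated and 2415, 1926 and 2017 after tamoxifen. Sample 1 was the highest of both groups for 3 of the 8 and the lowest of both for 2. Mzb1, a chaperone of antibody assembly, measured 897, 610 and 472 untreated and 767, 609 and 653 after tamoxifen. Jchain, which links IgA and IgM polymers, was lowest in samples 1, at 78.5, 132 and 124 untreated and 88.6, 133 and 130 after tamoxifen. The part of such cells in the light chain values was not tested. Fewer cells of a type and less RNA per cell cannot be told apart in bulk samples.

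The surrogate light chain, which pairs with the mu chain before a light chain exists, was bright. Igll1 is related in sequence to the lambda constant region, and whether its RNA adds signal to the lambda probe sets was not tested. Its intensity was 3816, 3332 and 3198 untreated and 4549, 4042 and 3960 after tamoxifen. Sample 1 was the highest of both groups. Its log2 fold change was 0.26 ± 0.08 (SE; limma adjusted p = 0.736). Its partners Vpreb1 and Vpreb2 measured 0.19 and -0.07, and Vpreb3 measured -0.12. Cd79a and Cd79b, the signalling chains of the antigen receptor, measured 0.32 and 0.52 with limma adjusted p of 0.882 and 0.134.

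Genes that act on these loci were read from 4 lists. Their calls are among the 20 over all probe sets and so rest on few arrays, since 0 to 6 were called with 1 array left out. An unadjusted p under 0.05 in limma was reached by 5.11% of all probe sets and by 7.03% of those at or above the median of all. Of 28 measured factors of germline transcription and light chain activation, 3 rose, 1 fell and 19 had a positive log2 fold change (median 0.09). An unadjusted p under 0.05 was seen for 7 of the 28, all of which were at or above the median of all probe sets. Those that rose were the transcription factors Spib (1.29), Bcl11a (0.84) and Ets1 (0.72), and the 1 that fell was Foxo1. Spib is a partner of Irf4 at light chain enhancers. Irf4 measured -0.16 ± 0.11 (SE), Pax5, which sustains B cell identity, 0.38 ± 0.13 (SE) and Ebf1, which specifies the lineage, -0.51 ± 0.07 (SE), the last with a limma adjusted p = 0.169. Of 15 measured recombination and end joining genes, 0 passed limma and 1 had an unadjusted p under 0.05. Rag1 and Rag2, which make the cut, were dim and measured -0.26 and -0.32, with SE of 0.19 and 0.24. Rag1 was at 93.4, 58.4 and 54.2 untreated and 56.3, 52.2 and 49.1 after tamoxifen. Rag2 was at 69.6, 29.4 and 40.1 untreated and 32.6, 36.6 and 26.3 after tamoxifen. Both were thus highest in untreated sample 1, and the other samples overlapped. Dntt, which adds bases at the joints, measured -1.26 ± 0.25 (SE; limma adjusted p = 0.365). Its intensity was 575, 297 and 281 untreated and 161, 144 and 128 after tamoxifen. Of 17 measured chains and signalling genes of the pre-B and B cell receptors, 1 rose, the adaptor Bank1 (1.93), 12 were positive and 8 had an unadjusted p under 0.05. All 17 were at or above the median of all probe sets. Of 8 measured class switching genes 0 passed limma and 0 had an unadjusted p under 0.05.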

How the data were processed

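The 6 arrays were grouped by their sample titles, which also number the samples. The deposited table holds 1 linear intensity for each probe set and array, already summarised by the authors by steps that are not given in the sources used here. These values were turned into log2(intensity + 16), which understates changes of dim probe sets, and then quantile normalised. A limma model (version 3.58.1, R 4.3.3; lmFit, eBayes, two-sided) was fitted over all 34760 probe sets, with Benjamini-Hochberg adjustment over all of them. Printed intensities are the deposited values, on which overlap was also judged. The platform's probe table gives 1 symbol for 21640 probe sets and several for 1321, and leaves out 11799. For genes outside the loci the brightest probe set with 1 symbol was used. The members, lists and tests were chosen with earlier results of these data known. By rule, values are given for probe sets that name a constant gene, for the 5 brightest of each locus and the 5 highest and 5 lowest changes among those at or above the median, and for the 10 smallest p, which made 24 of the 31. From the lists, genes past the threshold and 13 fixed genes are named. Other genes named are marked as chosen later. The limma fit was tested on simulated log2 values with changes of known size, which did not cover the normalisation.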

Additional observations from a re-analysis of the deposited data

How the results depend on the processing

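The alternatives were a replicate block, each of 6 arrays left out, cyclic loess, scaling to a common median, no further normalization, dim probe sets left out, eBayes with a trend and robust, array weights, pseudocounts of 1 and 64, and testing only probe sets with a symbol. The fit without both samples numbered 1 was chosen after seeing the data. In 16 of these 17 fits limma tested all 31 immunoglobulin probe sets and called 0, with 4 to 7 at an unadjusted p under 0.05. Without dim probe sets it tested 10 of them and called 0, with 4 at an unadjusted p under 0.05. Both lambda probe sets, Igkv19-93 (10545182) and Igha (10403063) kept their sign and an unadjusted p under 0.05 in all 17. Of 394 values of the 24 described probe sets 373 kept their sign.

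Calls over all probe sets numbered 20 in the main fit, 39 with array weights, 46 without dim probe sets, 60 among probe sets with a symbol, 12 with the trend, 12 with no further normalization, 11 with a pseudocount of 1, 3 with median scaling, 0 without both samples numbered 1, 0 with the replicate block, and 0 to 6 with 1 array left out. In the fits with 0 calls by limma, 1360 to 2525 probe sets had an unadjusted p under 0.05. Foxo1 measured -2.12 with median scaling, -2.13 with the block, -1.86 without both samples numbered 1 and -2.26 to -1.97 with 1 array left out. It lost its call in these fits except without untreated 1. The heavy chain median was -0.34 without dim probe sets, which left 3 of 10.

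Signs changed for Ighg3 (10403046), at 0.03 without both samples numbered 1, for probe set 10538921, at 0.02 with array weights, and for Igkv19-93 (10545177), at 0.03 with array weights and 0.05 without both samples numbered 1. With 1 array left out 10402991 ran from -0.01 to 0.14, 10403018 from -0.05 to 0.08, 10403046 from -0.15 to 0.07, 10403069 from 0.00 to 0.11, 10538921 from -0.67 to 0.39, 10545177 from -0.19 to 0.12, 10545187 from -0.09 to 0.19 and 10545198 from -0.11 to 0.06. The cause of these changes was not tested.

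Whether the numbers pair the samples is uncertain. Deviations from the group means of same-numbered samples correlated at 0.256, 0.0547 and 0.302 over all probe sets, and at 0.418, 0.128 and 0.406 among those at or above the median. Of unlike numbers, untreated 3 and tamoxifen 2 gave 0.248 and 0.398, above samples 2, and untreated 2 and tamoxifen 1 gave 0.103 and 0.028. The rest were negative, down to -0.42 and -0.553. The block was not taken as the design because 1 pair lay under 0.1 over all probe sets, which the fit covers. With the block an unadjusted p under 0.05 was reached by 6 immunoglobulin probe sets, and the lambda probe sets had limma adjusted p of 0.199 and 0.0936. The SE of the lambda probe sets was then 0.10 (10438405) and 0.07 (10438415), with 95% intervals of 0.48 to 0.99 and 0.77 to 1.12. The block's 95% intervals were -0.31 to 0.02 for probe set 10538921 and 0.19 to 0.52 for 10545175, with limma adjusted p of 0.733 and 0.321.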
